A study of Mus musculus with 6 samples.

Results

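Folate and one-carbon metabolism genes were followed in a comparison of RNA polymerase II (Pol II) on the chromatin of Armc5 knockout (KO) and wild-type (WT) mouse neural precursor cells (NPCs). The 32 genes were chosen by name, from the known steps of the pathway, with earlier results of these data known. Of them, 27 were among the 12107 genes measured in 3 regions each. Folh1, Folr1, Slc19a1, Shmt1 and Aldh1l1 were not analysed here. ARMC5 is the substrate-binding part of a ubiquitin ligase that acts on Pol II, and Pol II was mapped by ChIP-seq, in which fragments of chromatin held by an antibody are sequenced. The antibody recognised the N-terminus of POLR2A, also called RPB1, the largest subunit. The 3 KO libraries came from Armc5(-/-) cells and the 3 WT libraries from WT cells. Both were labelled as strain 129 sv X CD1, stage e13.5, and no drug or other agent set the groups apart. For its knockout mice the study's methods name a cross of CD1 with a different strain than the label gives. By the labels the cells were grown as neurospheres from fetal ganglionic eminences, in medium with epidermal growth factor. The study's methods name the ganglionic eminences too, while its results text speaks more broadly of brains and spinal cords. They are cultured precursors from a body-wide knockout and not cells of the closing neural tube. WT and KO libraries were numbered as replicate pairs 1 to 3, and the sources do not give how many fetuses stood behind each library.

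Folate carries single carbon units in the cell. Serine and glycine give up their carbons to folate, mostly in mitochondria, and the loaded folates are used to build purines and thymidylate and to turn homocysteine into methionine. Methionine becomes S-adenosylmethionine, the methyl donor for DNA, RNA, histones and lipids. A low folate supply in pregnancy is a known risk for neural tube defects, and loss of some genes of the glycine cleavage system or of mitochondrial folate metabolism causes such defects in mice.

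Sums over all counted regions ranged from 14528870 to 25199455 reads per library, of which the 27 genes held 22728 to 47548. In WT those reads made up 0.163% ± 0.0113 of the total, and in KO 0.171% ± 0.0152 (mean ± SD of 3 libraries). Pair 3 stood apart in both genotypes, with 6.04% and 6.88% of its counts in promoters against 10.9% to 12.2% in the other 4 libraries, and the third WT library had a Y-linked level of 0.731 CPM (library-scaled read counts) against 118 to 216 elsewhere. In pair 3 the promoters of the 27 genes differed from those in pairs 1 and 2 by a median of -0.79 on the log2 scale, beside -0.72 for all genes, and the gene bodies by a median of 0.28, beside 0.22. All 7 neural precursor markers were measured, among them Sox2, Nes and Pax6, and their gene bodies lay at a median percentile of 98.7 among all genes in WT. Their summed gene body level was 263 to 550 CPM in WT and 290 to 539 CPM in KO. Of 5 ganglionic eminence markers 3 were measured (median percentile 68.4), and Dlx1 and Nkx2-1 were not among the measured genes. Of markers of other cells, 4 of 5 for the oligodendrocyte lineage were measured (percentile 93.4, summed 187 to 372 CPM in WT and 184 to 344 in KO). Among them Olig1 and Olig2 were at percentiles 99.7 and 99.8, Sox10 at 87.1 and Mbp at 16.2. For neurons 4 of 5 were measured (11.8, summed 290 to 757 and 264 to 682). The summed levels are not scaled to gene length, and Syt1, at percentile 8.40, held 214 to 567 CPM of the neuron sum in WT. Also measured were 3 of 5 for astrocytes (62.0), 2 of 4 for choroid plexus (23.8) and 1 of 4 for endothelium (Kdr, 3.66). Of 5 markers of microglia and blood and 4 of mesenchyme, 0 were among the measured genes. In such a culture, fewer cells with Pol II on a gene and less Pol II per cell cannot be told apart.

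The promoters of 5 genes are printed here because the results turn on them. Mat2a had the most Pol II per kilobase of the 27 genes in every region and the gene body with the smallest p between genotypes, Gart and Mtrr had the most Pol II at the promoter for what their gene bodies held, and Fpgs and Mat2b had the least. Each sequence runs 5′ to 3′ from 250 bases before to 50 bases after the gene's RefSeq start, on build GRCm38.p6, and 23 of the 27 genes were found in that table. For Fpgs and Mat2b that start lies 9970 and 2521 bases inside the GENCODE gene. Which start was counted is not known, so their printed stretches may not be the promoters that were counted. Capitals mark short motifs on either strand, namely the GC box GGGCGG, the CCAAT box CCAAT, the TATA box TATAAA, the E-box CACGTG, the E2F letters TTTCCCGC and TTTGGCGC, the ATF4 element TGATGNAA and the ETS letters CGGAAG. Motifs that overlap share their capitals.
Mat2a, chr6:72439507-72439806, minus strand: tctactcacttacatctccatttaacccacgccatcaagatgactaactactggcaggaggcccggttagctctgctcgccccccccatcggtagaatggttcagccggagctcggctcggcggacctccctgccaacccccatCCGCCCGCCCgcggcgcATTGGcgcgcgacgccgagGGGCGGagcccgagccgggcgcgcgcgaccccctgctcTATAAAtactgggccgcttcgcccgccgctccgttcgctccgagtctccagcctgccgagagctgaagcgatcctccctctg
Gart, chr16:91646923-91647222, minus strand: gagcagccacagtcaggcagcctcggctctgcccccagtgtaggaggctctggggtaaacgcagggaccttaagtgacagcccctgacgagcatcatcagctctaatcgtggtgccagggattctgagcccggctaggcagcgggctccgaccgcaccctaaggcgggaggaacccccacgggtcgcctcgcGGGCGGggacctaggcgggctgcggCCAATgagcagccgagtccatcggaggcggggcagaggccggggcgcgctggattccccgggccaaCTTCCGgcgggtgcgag
Mtrr, chr13:68582120-68582419, minus strand: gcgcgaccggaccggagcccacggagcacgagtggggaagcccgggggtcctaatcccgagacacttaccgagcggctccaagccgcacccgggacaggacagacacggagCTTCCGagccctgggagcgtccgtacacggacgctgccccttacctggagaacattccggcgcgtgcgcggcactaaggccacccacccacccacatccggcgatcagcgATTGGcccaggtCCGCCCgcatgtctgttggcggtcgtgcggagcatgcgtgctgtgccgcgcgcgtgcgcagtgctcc
Fpgs, chr2:32694126-32694425, minus strand: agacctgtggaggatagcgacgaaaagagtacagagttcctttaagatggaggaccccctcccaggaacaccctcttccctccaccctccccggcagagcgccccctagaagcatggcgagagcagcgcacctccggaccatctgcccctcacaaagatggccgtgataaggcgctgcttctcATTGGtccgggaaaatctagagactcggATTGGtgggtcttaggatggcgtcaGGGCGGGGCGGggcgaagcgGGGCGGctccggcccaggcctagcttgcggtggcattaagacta
Mat2b, chr11:40692633-40692932, minus strand: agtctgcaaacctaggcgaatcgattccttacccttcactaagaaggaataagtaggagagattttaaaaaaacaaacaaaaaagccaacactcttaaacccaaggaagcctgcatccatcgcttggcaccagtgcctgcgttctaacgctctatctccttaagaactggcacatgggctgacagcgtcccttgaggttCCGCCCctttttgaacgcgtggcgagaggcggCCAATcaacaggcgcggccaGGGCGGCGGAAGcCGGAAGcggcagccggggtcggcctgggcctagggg

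The GC box was the motif most often found, in 20 of the 23 promoters (87%), against 68.1% of the 9505 measured genes found in the table and 35.7% of all 32851 promoters in it. The CCAAT box was in 15 of 23 (65.2%), against 39.5% of measured genes and 37.4% of all promoters. A TATA box was in 2 of 23 (8.7%), Mat2a and Ahcyl1, against 6.23% of measured genes and 13.6% of all promoters. In Mat2a it began 32 bases before the start, which is where a working TATA box usually lies, while in Ahcyl1 it began 241 bases before. The E-box was in 3 of 23 (13%), Tyms, Atic and Cbs, against 10.4% of measured genes and 7.15% of all promoters. The ETS letters were in 6 of 23 (26.1%), fewer than the 32.8% of measured genes, with 16.9% of all promoters. The E2F and ATF4 letters were in 0 of 23. They were in 2.22%, 1.07% and 1.96% of measured genes and in 1.07%, 0.514% and 3.97% of all promoters, in the order given above. The median GC content was 59% in the 23 promoters, 61.7% in those of measured genes and 52.7% in all. A match describes letters and is not a site shown to be bound.

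Levels were compared between genes as TMM-scaled CPM per kilobase, with region lengths taken from the GENCODE annotation of GRCm38. In WT, the gene bodies of the pathway ranged from 0.70 to 6.87 CPM per kilobase around a median of 1.27, and 12 of 27 lay above the all-gene median of 1.40. Mat2a, the gene of the catalytic subunit that makes S-adenosylmethionine, led the order. Its 6.87 ± 2.29 CPM per kilobase (SD, n = 3) was at percentile 96.7 of all genes, and its lowest WT library, at 4.97, was above the highest of Amt, the next gene, at 3.22. Amt (2.78 ± 0.731), Mat2b (2.50 ± 0.262), Slc46a1 (2.25 ± 0.241) and Ahcyl1 (1.92 ± 0.175) followed. From the RefSeq start, Fpgs would be second. Below Mat2a the order was not resolved, since the WT ranges overlapped in 25 of the 26 pairs of neighbours. The lowest were Aldh1l2 (0.945 ± 0.407), Ggh (0.908 ± 0.36) and Cth (0.70 ± 0.384), the last at percentile 5.06 and close to the 0.673 of the endothelial gene Kdr.

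**Figure D1:**
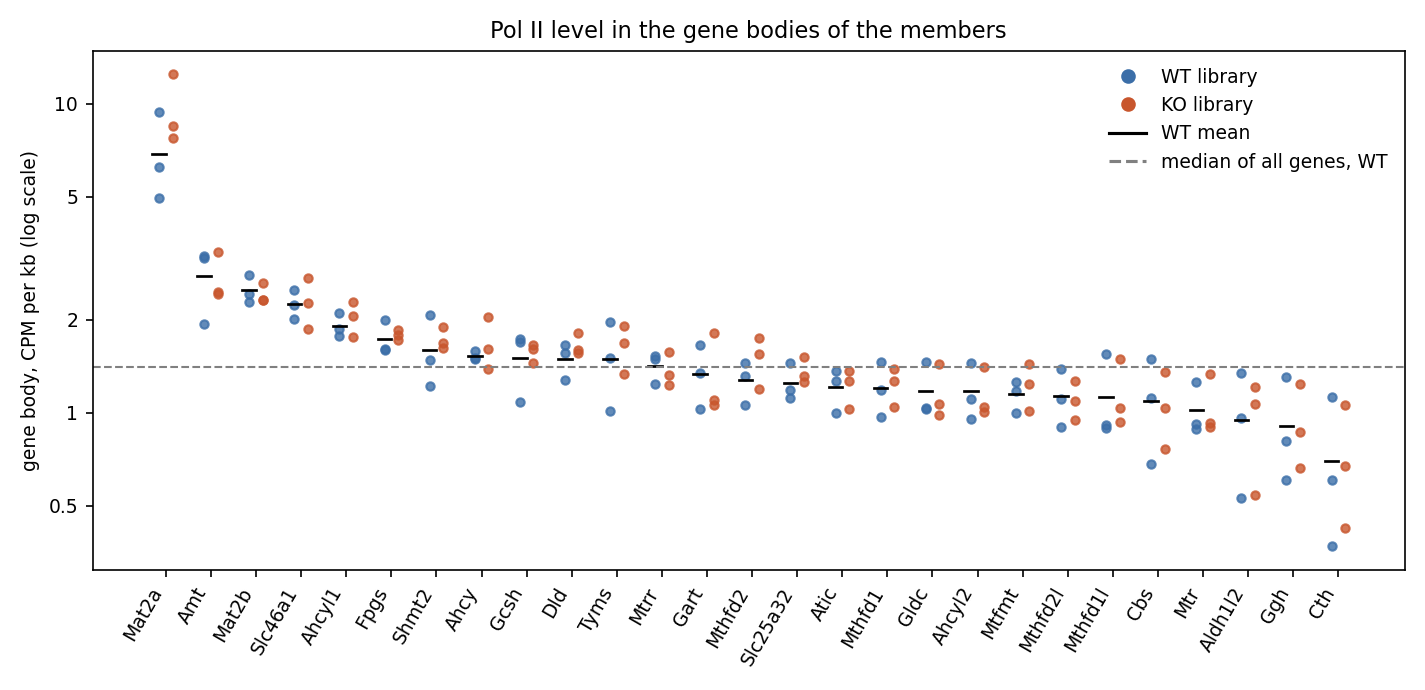
Gene body level of each of the 27 genes in CPM per kilobase on a log scale, ordered by the WT mean, with a point for each WT and KO library, a bar for the WT mean and a dashed line at the all-gene WT median of 1.40. Mat2a stands above the rest in all 6 libraries, and WT and KO points overlap in every gene.

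In promoters, 13 of 27 genes lay above the all-gene median of 11.4 CPM per kilobase, within a range of 1.69 to 59.1. In TES regions, which span the transcription end site and the stretch downstream of it, 11 of 27 lay above the median of 1.68, within 0.681 to 14.5. Mat2a was highest in both, at percentile 99.5 for its promoter and 99.1 for its TES region. Among the other 26 genes the highest TES level was that of Gldc, 4.14 ± 0.626 CPM per kilobase at percentile 88.0. Promoter and gene body levels had at most a weak relation across the genes, which was not tested (Pearson's r 0.194 and Spearman's rho 0.153 on log2 values, n = 27, all from the same 3 WT libraries).

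The ratio of promoter to gene body reads per base, used as a measure of pausing near the start, had a median of 8.33 over the 27 genes in WT and 6.78 over all genes. Gart, which encodes an enzyme of early purine synthesis, had the highest, at percentile 99.1. Its ratio was 36.4, 47.7 and 20.7 in WT and 42.8, 38.2 and 15.4 in KO. Mtrr, whose product reactivates methionine synthase, had 29.3, 29.1 and 14.7 in WT and 30.1, 28.7 and 10.5 in KO. Mthfd2, a mitochondrial folate dehydrogenase, had 31.5, 27.7 and 11.3 in WT and 33.9, 22.6 and 9.59 in KO. In all 3 genes pair 3 was the lowest of each genotype, as it was for promoter signal at large.

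At the other end, Mat2b, which encodes the regulatory partner of MAT2A, had ratios of 0.543, 0.964 and 0.605 in WT and 0.315, 0.933 and 1.67 in KO. Fpgs, whose product adds the glutamate tail that keeps folate inside the cell, had 0.905, 0.956 and 1.58 in WT and 1.42, 0.642 and 1.55 in KO. These promoters held about as few reads per base as the gene body, or fewer. Amt, of the glycine cleavage system, had 2.86, 1.85 and 2.13 in WT and 2.53, 2.15 and 1.72 in KO. The choice of start matters where the RefSeq start lies inside the GENCODE gene by more than the 100 bases that the promoter window reaches downstream, which was so by 9970 bases in Fpgs, 8304 in Mthfd2, 2521 in Mat2b and 432 in Ahcyl2. The sources do not give which start the counted windows used, and its part in the ratios was not tested. Measured from the RefSeq start, the same gene body reads would give 3.25 CPM per kilobase for Fpgs, 2.17 for Mthfd2 and 2.97 for Mat2b in place of 1.73, 1.27 and 2.50. Some promoter windows also cover a neighbour. From the GENCODE start, 58.6% of the Mthfd2 window lies in Mob1a, 63.2% of that of Mtrr in Fastkd3, 50.4% of that of Slc25a32 in Dcaf13 and all of that of Mat2a in Particl, each on the opposite strand, and ChIP reads cannot be assigned to a strand.

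**Figure D2:**
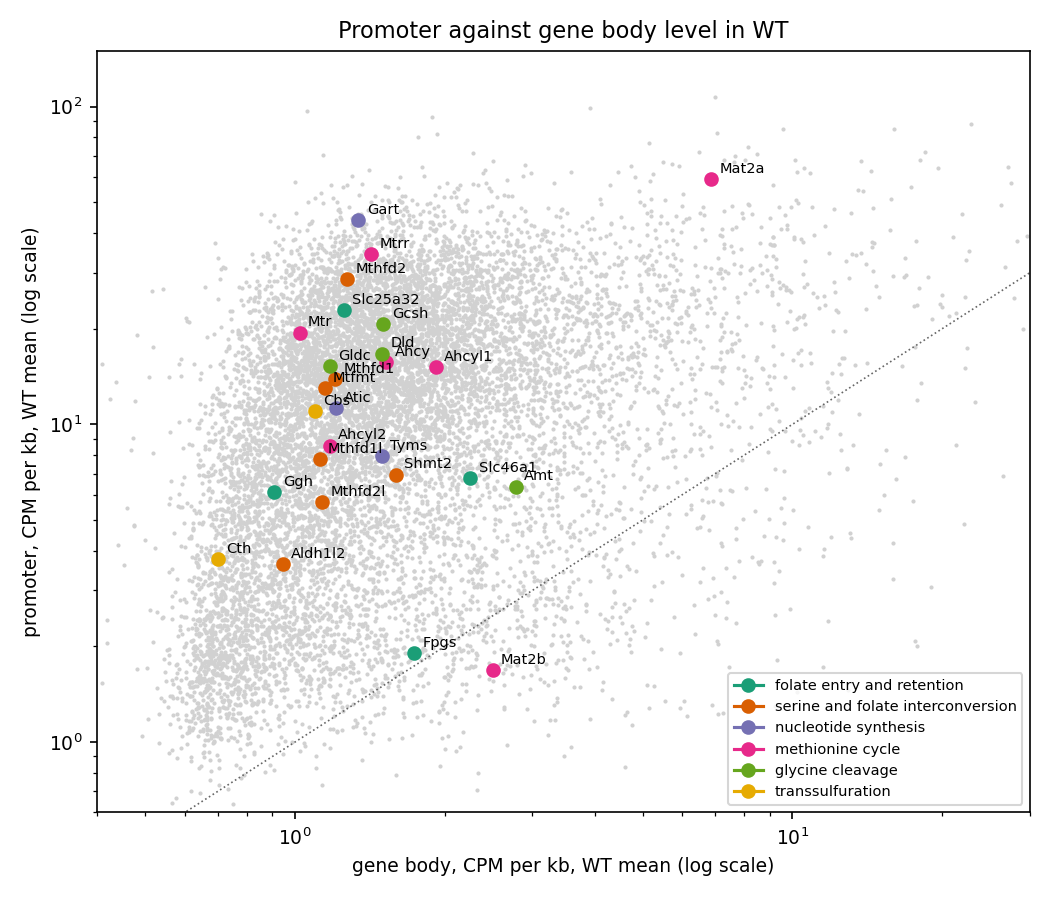
Promoter against gene body level in WT in CPM per kilobase, both on log scales, with the 27 genes coloured by role, all other measured genes in grey, and a dotted line where both are equal; genes outside the axes are not drawn. Mat2a is at the upper right, Gart, Mtrr and Mthfd2 are at the top for their gene body level, and Mat2b lies below the line with Fpgs just above it.

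The main question was whether Pol II on these genes differed between KO and WT. No region of the 27 genes was called at an adjusted p under 0.1 (limma-voom, Benjamini-Hochberg adjustment over all 36321 regions), and the closest was the gene body of Mat2a, with an adjusted p of 0.103. Over all genes, 0.173% of promoters, 0.206% of gene bodies and 0.0248% of TES regions were called. At an unadjusted p under 0.05 there was 1 promoter of 27 (Mthfd2l, higher), 2 gene bodies (Mat2a and Mthfd2, higher) and 1 TES region (Mtfmt, lower), where the shares over all genes were 9.95%, 8.41% and 6.24%. Groups without overlap were found in 1 promoter, 0 gene bodies and 2 TES regions, against 2.57%, 2.1% and 4.09% of all genes. None of these counts stands clear of the share over all genes. With the quasi-likelihood test of edgeR and with DESeq2, 0 promoters, 0 TES regions and 1 gene body, that of Mat2a, were called. DESeq2 gave no adjusted p for the Mthfd2l promoter or for the TES regions of Mtfmt, Ahcy, Ahcyl2 and Aldh1l2, so it could not call them.

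The median difference over the 27 genes was small in every region. In promoters 18 of 27 genes were above 0, against 54.8% of all genes, with a median log2 fold change of 0.08 beside 0.03 for all, and that median became -0.05 without replicate pair 1. In gene bodies 19 of 27 were above 0, against 45.3% of all genes, with a median of 0.05 beside -0.01. In TES regions 10 of 27 were above 0, against 34.4%, with a median of -0.05 beside -0.08. Apart from Mat2a, the 95% intervals of the gene body changes all lay between -0.34 and 0.49, or 0.791-fold to 1.41-fold. Larger changes in the counted reads of a gene body were outside the intervals. No input library was subtracted, and the share of reads that did not come from Pol II was not measured. Larger changes of Pol II itself were therefore not excluded. Promoters and TES regions, with a median of 53 to 204 and 41 to 95 reads per library against 408 to 784 in gene bodies, gave wider intervals, from -0.73 to 1.04 and from -0.88 to 0.89.

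**Figure D3:**
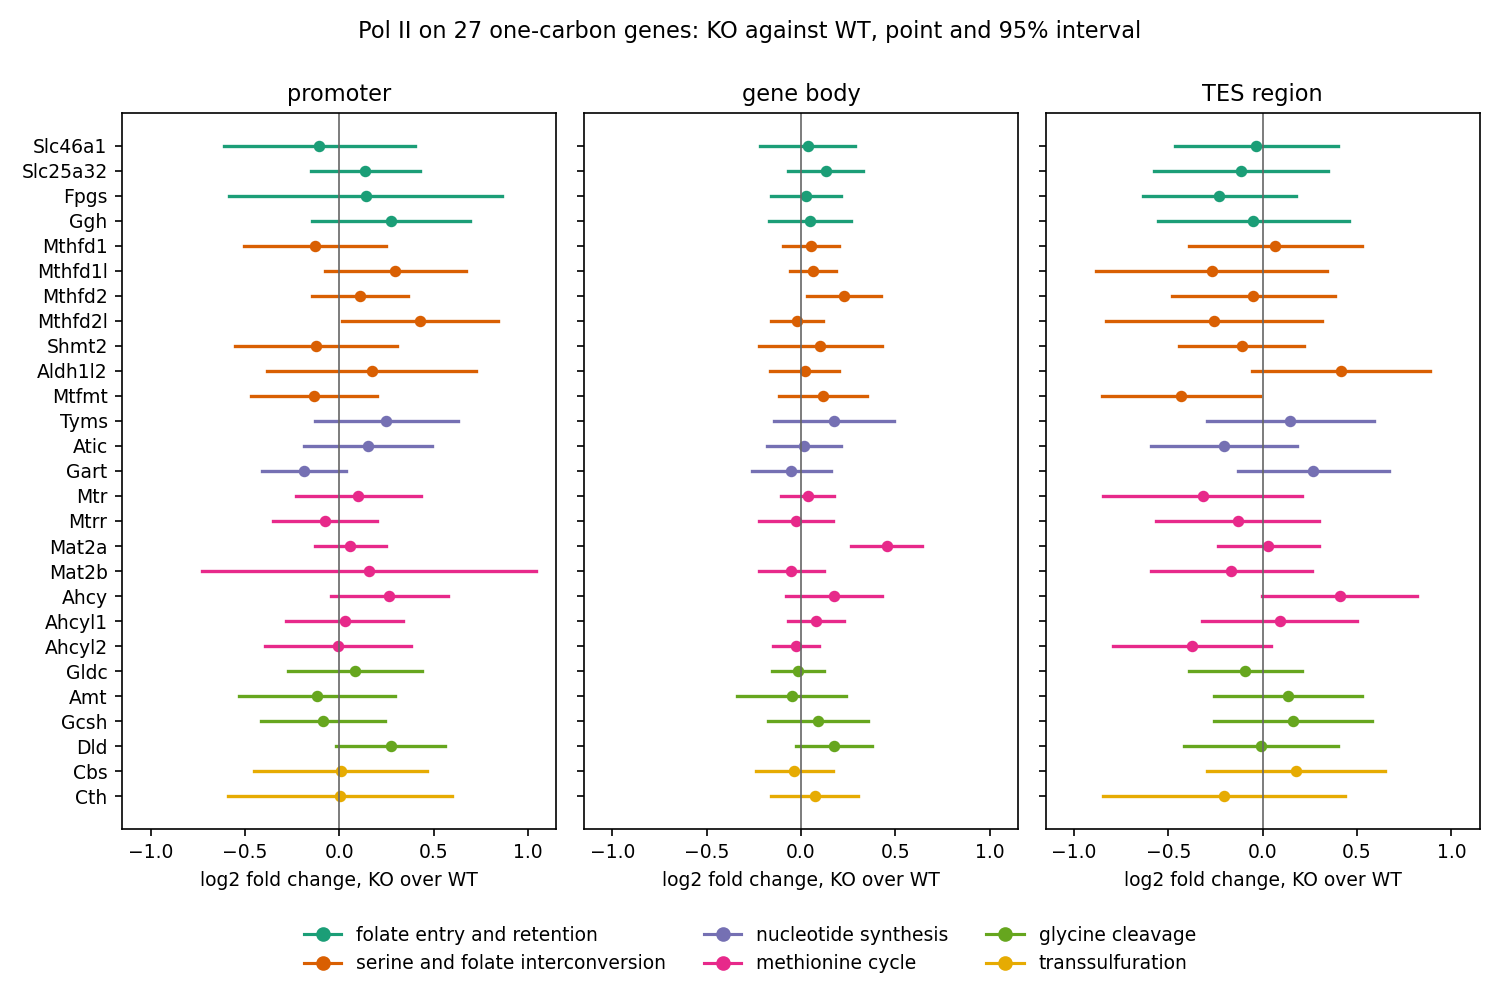
Log2 fold change of KO over WT with its 95% interval for each of the 27 genes in promoter, gene body and TES region, coloured by role. The interval of the Mat2a gene body, at 0.45, lies farthest from 0, and besides it only those of the Mthfd2 gene body, the Mthfd2l promoter and the Mtfmt TES region leave out 0.

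Mat2a lies on chr6:72432799-72439558 on the minus strand (GRCm38). In its gene body the 3 WT libraries had 61.7, 40.8 and 32.6 CPM and the KO libraries of the same pairs 81.7, 50.8 and 55.4. Each KO library was above its own WT partner, while the ranges of the groups overlapped, since pair 1 was high in both. The log2 fold change was 0.45 ± 0.09 (SE, 95% interval 0.27 to 0.64, 1.37-fold), with an unadjusted p of 0.00015 and rank 53 of all 36321 regions, and by pair it was 0.41, 0.31 and 0.77. The call depended on the fit. It passed with edgeR (adjusted p = 0.0774), DESeq2 (0.0379, over the regions that DESeq2 kept for adjustment) and DESeq2 size factors (0.0864). It did not pass with total counts (0.15), TMM by kind of region (0.291), the deposited log2 values (0.13) or a filter on low counts (0.108). It passed as well without replicate pair 1 (0.0166) or 3 (0.0695) and not without pair 2 (0.254). The estimate was between 0.36 and 0.52 in all 17 alternatives. Among single libraries the gene body passed without any but the second WT library (0.000743 to 0.0986, against 0.138). Under the pair block, a library without its partner does not enter the difference between KO and WT. The fits without a single library therefore compare the same pairs as the fits without a pair and are not separate checks.

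At the promoter and the TES region of Mat2a the estimates were near 0. Its promoter had 42.3, 29.6 and 16.7 CPM in WT and 44.6, 29.5 and 18.6 in KO, a log2 fold change of 0.06 ± 0.09 (95% interval -0.13 to 0.25). Its TES region had 52.0, 18.4 and 21.0 CPM in WT and 45.5, 18.1 and 32.3 in KO, at 0.03 ± 0.12 (-0.24 to 0.30). The promoter to gene body ratio was 9.00, 9.51 and 6.75 in WT and 7.16, 7.63 and 4.41 in KO, lower in 3 of 3 pairs. That log2 ratio differed by -0.42 ± 0.18 (limma, unadjusted p = 0.037, adjusted p = 0.427), which was not a call. In this test 0 of the 27 genes were called and 1, Mat2a, had an unadjusted p under 0.05, against 0.0331% and 10.7% of the genes tested.

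**Figure D4:**
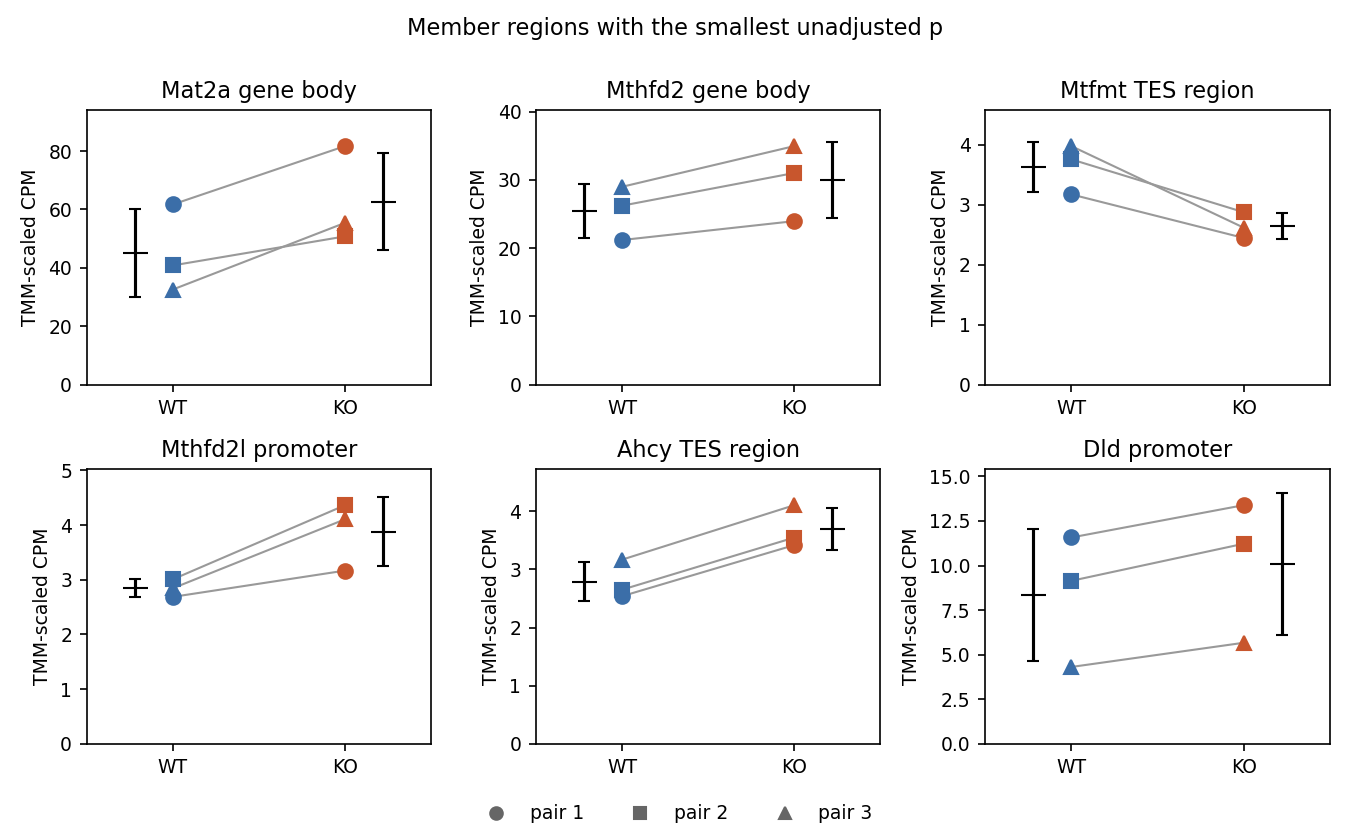
CPM in each library for the 6 regions with the smallest unadjusted p among the 81, with lines joining the libraries of a pair and bars for the group mean and SD. KO is above WT in every pair in 5 panels and below it in every pair for the TES region of Mtfmt, and none of the 6 regions was called by limma-voom, while edgeR and DESeq2 called the gene body of Mat2a.

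Of the other methionine cycle genes, Ahcy, whose product removes S-adenosylhomocysteine, came nearest to a difference. Its TES region had 2.54, 2.65 and 3.17 CPM in WT and 3.42, 3.55 and 4.11 in KO, without overlap, at a log2 fold change of 0.41 ± 0.19 (unadjusted p = 0.0523, adjusted p = 0.611 by limma). Its promoter had 8.99, 9.97 and 4.63 CPM in WT and 12.2, 11.4 and 4.67 in KO, at 0.27 ± 0.14. Its gene body had 22.3, 22.6 and 23.7 CPM in WT and 30.6, 24.0 and 20.8 in KO, lower in KO in pair 3. The Ahcy promoter window lies wholly within an antisense gene. The TES region of Ahcyl2, a paralogue of Ahcy, had 4.83, 3.40 and 4.06 CPM in WT and 3.38, 2.30 and 4.18 in KO. The log2 fold change was -0.38 ± 0.19 (adjusted p = 0.647 by limma), with pair 3 flat, and the whole window lies in the gene 4930528J11Rik on the other strand. Mtr, the gene of methionine synthase itself, had 66.6, 69.0 and 94.7 CPM in its gene body in WT and 67.4, 69.6 and 100.4 in KO, at 0.04 ± 0.07, and the groups overlapped.

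Among the genes that take up and keep folate, 4 of 7 were measured. Slc46a1, the proton-coupled folate transporter, had the highest gene body level per kilobase of the 4 when lengths run from the GENCODE start, though not from the RefSeq start, where Fpgs is higher. It had 13.8, 15.4 and 12.4 CPM in WT and 14.0, 16.8 and 11.5 in KO. Ggh, whose product trims the glutamate tail that FPGS adds, had the lowest per kilobase, with 14.8, 19.9 and 32.0 CPM in WT and 16.2, 21.2 and 30.4 in KO. The groups overlapped in both, and the log2 fold changes were 0.04 ± 0.12 and 0.05 ± 0.10. For the gene bodies of Slc25a32, the mitochondrial folate carrier, and Fpgs they were 0.13 ± 0.09 and 0.03 ± 0.09. Over the 4 genes, 4 gene bodies, 3 promoters and 0 TES regions had an estimate above 0, where the shares over all genes were 45.3%, 54.8% and 34.4%, and all their intervals included 0.

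In the serine and folate interconversion group, 7 of 9 genes were measured, and Mthfd2 had the gene body with the smallest p. Its gene body had 21.2, 26.2 and 29.0 CPM in WT and 24.0, 31.0 and 35.0 in KO, so that each KO library was above its partner by 0.18, 0.24 and 0.27 on the log2 scale. The fold change was 0.23 ± 0.09 with an unadjusted p of 0.0254 and an adjusted p of 0.539 by limma. Mthfd2l, its paralogue, had 2.69, 3.01 and 2.84 CPM at its promoter in WT and 3.17, 4.36 and 4.11 in KO, without overlap, at 0.43 ± 0.19 (adjusted p = 0.597), while its gene body was at -0.02 ± 0.06. Mtfmt, whose product formylates the initiator tRNA of mitochondria, had 3.17, 3.76 and 3.98 CPM in its TES region in WT and 2.45, 2.88 and 2.62 in KO, also without overlap, at -0.43 ± 0.19 (adjusted p = 0.595). A lincRNA gene on the same strand covers 68.5% of that window. Aldh1l2, a mitochondrial formyltetrahydrofolate dehydrogenase, had 1.07, 2.45 and 2.68 CPM in its TES region in WT and 1.37, 3.36 and 3.61 in KO, at 0.42 ± 0.22, and the whole window lies in the gene D10Wsu102e on the other strand.

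Shmt2, which encodes the mitochondrial enzyme that moves a carbon from serine to folate, had the highest gene body level per kilobase in this group from the GENCODE start, while from the RefSeq start Mthfd2 is higher. It had 7.57, 10.6 and 6.26 CPM in WT and 8.31, 9.69 and 8.64 in KO, at 0.10 ± 0.15. The gene body of Aldh1l2 had the lowest level per kilobase, with 24.6, 44.8 and 62.4 CPM in WT and 25.2, 49.6 and 56.3 in KO, at 0.02 ± 0.08. That spread ran by pair and not by genotype, as it did for Ggh, Cbs and Cth. Over the 27 genes, the third WT library had the highest gene body level of the 3 for 19 and the lowest promoter level for 20.

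The nucleotide genes are Tyms, which makes thymidylate for DNA, and Atic and Gart, which build purines. Tyms had the highest gene body level per kilobase of the 3 and Atic the lowest. The gene body of Tyms had 15.4, 22.8 and 30.0 CPM in WT and 25.6, 20.3 and 29.0 in KO. Its log2 fold change was 0.18 ± 0.15 (95% interval -0.14 to 0.49), made of 0.73, -0.17 and -0.05 by pair, so only pair 1 was higher in KO. The gene bodies of 8 S phase genes, Pcna, Rrm2, Tk1 and others, had a median of 0.59, -0.02 and 0.14 by pair, and 8 of 8 had an estimate above 0 in the fit (median 0.27, 4 at an unadjusted p under 0.05 and 0 called by limma-voom, edgeR or DESeq2), where 45.3% of all gene bodies were above 0 and 8.41% had such a p. Their summed gene body level was 158 to 249 CPM in WT and 184 to 280 CPM in KO, and its part in the Tyms values was not tested. Atic, by contrast, had 28.2, 22.2 and 30.3 CPM in WT and 28.2, 22.8 and 30.5 in KO, at 0.02 ± 0.09, and the Gart promoter, with 24.4, 24.5 and 17.1 CPM in WT and 23.6, 20.2 and 13.9 in KO, was lower in each KO library, at -0.19 ± 0.10 (adjusted p = 0.671 by limma).

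**Figure D5:**
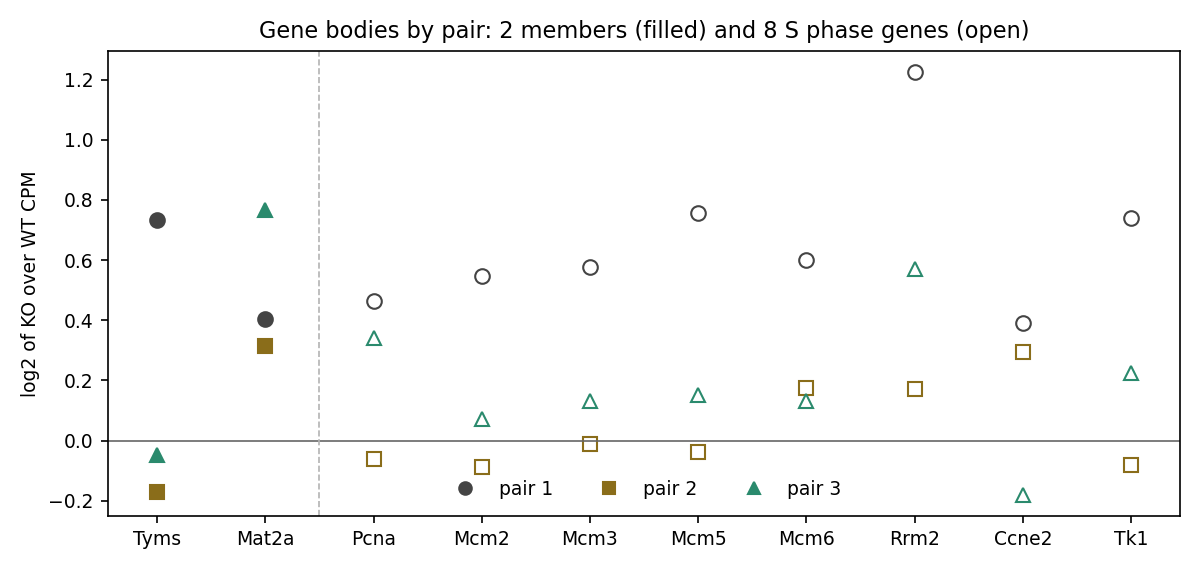
Log2 ratio of KO over WT CPM in the gene body by replicate pair, for Tyms and Mat2a (filled) and for 8 S phase genes (open). Tyms is above 0 only in pair 1, where all 8 S phase genes are above 0 as well, and Mat2a is above 0 in all 3 pairs.

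The 4 genes of the glycine cleavage system were all measured. Amt had the highest gene body level per kilobase, with 16.9, 16.7 and 10.2 CPM in WT and 17.4, 12.9 and 12.7 in KO, at -0.05 ± 0.13. Gldc, the glycine decarboxylase, had the lowest per kilobase, with 78.9, 79.3 and 112 CPM in WT and 81.7, 75.3 and 110.0 in KO, at -0.02 ± 0.06. Neither differed by genotype beyond its spread. Dld, whose product also serves pyruvate dehydrogenase, had 11.6, 9.14 and 4.31 CPM at its promoter in WT and 13.4, 11.2 and 5.66 in KO, higher in each pair, at 0.27 ± 0.13 (adjusted p = 0.631 by limma). Its gene body had 31.1, 25.4 and 33.1 CPM in WT and 36.2, 31.1 and 32.0 in KO, at 0.17 ± 0.09, and was lower in KO in pair 3. Gcsh, the lipoyl carrier of the system, was at -0.09 ± 0.15 for the promoter and 0.09 ± 0.12 for the gene body.

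Transsulfuration takes homocysteine out of the cycle towards cysteine. Cbs, its first enzyme, had 19.2, 31.3 and 41.9 CPM in the gene body in WT and 21.4, 29.3 and 38.1 in KO, at -0.04 ± 0.09. Cth, which completes the step, had 11.3, 18.6 and 34.4 CPM in WT and 13.0, 20.5 and 32.4 in KO, at 0.07 ± 0.11. In both genes pair 1 was lowest and pair 3 highest in either genotype. The log2 fold changes of their promoters were 0.01 ± 0.21 and 0.00 ± 0.27. The interval for Cth was -0.59 to 0.60, and changes within it were not excluded.

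A wider list of 36 genes around the pathway, of which 25 were measured, gave 0 calls in any region with limma-voom, edgeR or DESeq2. An unadjusted p under 0.05 was found for 4 promoters and 2 gene bodies, all higher in KO, and for 3 TES regions, of which 1 was higher and 2 lower, beside shares over all genes of 9.95%, 8.41% and 6.24%. Mmadhc, a gene of cobalamin handling, had 3.26 ± 0.515 CPM at its promoter in WT and 5.22 ± 1.16 in KO (log2 fold change 0.65 ± 0.20). Mtap, of methionine salvage, had 1.77 ± 0.157 and 2.67 ± 0.444 (0.62 ± 0.23). Both were higher in each KO library than in its partner, with adjusted p of 0.379 and 0.508 by limma. In gene bodies, Amd1, which uses S-adenosylmethionine for polyamine synthesis and shares its exons with the retrogene copy Amd2, so that its exonic reads are uncertain, had 42.2 ± 9.05 CPM in WT and 52.5 ± 4.28 in KO (0.28 ± 0.10, adjusted p = 0.477). Psph, the last step of serine synthesis, had 39.0 ± 1.27 and 43.8 ± 3.21 (0.17 ± 0.08), and Mmachc, also of cobalamin handling, had 15.1 ± 4.42 and 17.3 ± 3.99 (0.18 ± 0.11). Both were higher in KO in 3 of 3 pairs, with adjusted p of 0.604 and 0.721.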

How the data were processed

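Groups and pair numbers were taken from the sample titles. The processing notes of the submitters list build GRCm38 (mm10) and the tools BWA, Trimmomatic, Picard, MACS2, HOMER, limma, edgeR and bcl2fastq 2.20, and the gene annotation is not stated. With HOMER the authors counted reads in promoters (400 bases upstream to 100 downstream of the start), gene bodies and TES regions (to 2000 bases downstream of the end), and deposited whole-number counts for 12107 genes, having removed genes without signal in KO cells. They also deposited log2 CPM from TMM and voom. Neither an input library nor spike-in chromatin entered these values, so a shift of Pol II on all genes together would not be seen.

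The counts of all 36321 regions were fitted together with limma-voom under TMM scaling, with the replicate pair as a block, two-sided, in R 4.3.3 with edgeR 4.0.16, limma 3.58.1 and DESeq2 1.42.0. A call was an adjusted p under 0.1. Same-numbered libraries deviated together from their group means (correlations 0.606 to 0.889), and the study describes replicate pairs. The log2 promoter to gene body ratio, with 0.5 added to each count, was tested with limma where both regions averaged 10 counts or more. Fold changes are estimate ± SE, and levels are mean ± SD of 3 libraries. With the pair block, p-values measure only how the difference between KO and WT varied over these pairs of cultures.

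The limma-voom, edgeR and ratio fits were run on simulated counts, and DESeq2 was not. The simulation used a fixed dispersion and put known changes only in regions with many reads. Recovery of changes in regions with few reads was therefore not tested. The gene lists, members and tests were chosen with earlier results of these data known. Values by library are given for the 10 regions with the smallest p, the highest and lowest gene body level per kilobase in each role group, and the 3 highest and 3 lowest promoter to gene body ratios; from the wider list, up to 3 genes with the smallest p for each of promoters and gene bodies. One result that the rule names is not reported here. Sequences are from RefSeq. Alternatives were edgeR and DESeq2, no pair block, other scalings, the deposited log2 values, a filter on low counts, a stricter threshold, other ratio settings and leaving out each library or pair.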

Additional observations from a re-analysis of the deposited data

How the results depend on the processing

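Of the calls on the 27 genes, those in gene bodies depended on the processing, and they concerned Mat2a alone. The count of called gene bodies was 0 as reported and 1 with edgeR, 1 with DESeq2, 1 with DESeq2 size factors, and 0 to 1 over the fits that left out a library or a pair. The counts for promoters, TES regions and the promoter to gene body ratio were 0 in every alternative. DESeq2 gave no adjusted p for some of the promoters and TES regions, so it could not call those. The median log2 fold change of the promoters was 0.08 as reported and ranged from -0.053 to 0.11 over the fits that left out a pair, and that of the TES regions, -0.05 as reported, became 0.0214 when each kind of region was scaled and fitted by itself. The cause was not tested. Without the replicate block 0 gene bodies, 0 promoters and 0 TES regions of the 27 genes were called, with an unadjusted p of 0.141 for Mat2a, and 0 of all 36321 regions were called against 49 with it. Over all regions the count of calls was 85 when each kind of region was fitted by itself, 20 with total counts, 11 without pair 2, and 143 to 546 in the fits without pair 1, pair 3, or any 1 library other than the second WT library, which gave 51. For single promoters and TES regions, changes within the intervals given were not excluded.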
